A study of Mus musculus with 14 samples.

Results

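The genes described here encode the machinery that copies DNA before a cell divides. They are 42 of the 18193 genes that a genome-wide Affymetrix mouse expression array measured through a probe set with a single gene symbol, and they were picked by gene symbol, with earlier results of these data known. Where a gene had several probe sets, the brightest on average over the arrays stood for it. By role they fall into 8 groups: 6 genes of origin licensing, 6 MCM helicase subunits, 7 genes of helicase activation and origin firing, 9 of primase and the polymerases, 6 of the sliding clamp and its loader, 3 of single-strand binding, 2 of flap removal and ligation, and 3 of nucleotide supply.

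The arrays followed whole lungs of untreated ICR mice, an outbred strain, through development. The 7 stages had 2 arrays each, 14 in all: embryonic days 12, 14, 16 and 18 (E12 to E18, with the day of the plug as day 0), postnatal days 2 and 10 (P2, P10), and postnatal day 30, called Adult. RNA was taken from pooled lungs. How many lungs a pool held, and whether the replicates of a stage were separate pools, is not given in the sources used here, so each SD, SE and p-value measures the spread between these arrays, which may be technical. The labels give female for each sample, without saying whether this describes the lungs or the bred mothers. In RNA of a whole organ, fewer cells of a type and less RNA per cell cannot be told apart.

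Replication begins with licensing. The origin recognition complex (Orc1, Orc2 and Orc6 among its subunits), Cdc6 and Cdt1 load the ring-shaped Mcm2-7 helicase onto DNA, and geminin (Gmnn) blocks Cdt1 once S phase has begun. The kinase Cdc7 with its activator Dbf4, together with Cdc45, the GINS complex and Mcm10, turns the loaded helicase on. Polymerase alpha with primase makes the primers, polymerases epsilon and delta extend them, replication factor C (Rfc1 to Rfc5) loads the sliding clamp PCNA, replication protein A (Rpa1 to Rpa3) coats single strands, Fen1 and Lig1 finish the lagging strand, and ribonucleotide reductase (Rrm1, Rrm2) and thymidylate synthase (Tyms) supply nucleotides. Many of these genes are transcribed most in dividing cells, under E2F factors. In the lung, cell division feeds the branching of the early airways and, after birth, the formation of alveoli.

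Lung markers were present on every array. The summed linear level of 6 lung markers, among them the surfactant gene Sftpc, was between 6114 and 6321 at E12 and between 42812 and 43514 in Adult lung. Between these stages the means of Sftpc and Sftpb went from 10.88 and 7.67 to 14.81 and 13.40. Foxf1 went from 10.06 to 10.77 and Nkx2-1 from 7.25 to 7.53, while Tbx4 went from 10.96 to 10.30 and Tbx5 from 9.83 to 8.66. The first E16 array stood apart from its replicate in markers of another organ: the summed level of 8 heart muscle markers was 22124 there and 4582 on the second E16 array, and Myl2, the ventricular myosin light chain, read 12.63 and 8.84. Its 7 thymus and T cell markers summed to 576 against 407, with the lymphocyte recombinase gene Rag1 at 5.80 against 3.23. Counts and medians of the 42 genes that rest on E16 are therefore also given without the first E16 array. That may not remove all heart signal at E16, since Myl2 read 4.65 and 4.92 at E14 and 4.83 and 4.84 at E18. The heart sum was 2840 and 2855 at E14 and 6367 and 7855 at E18. It was 15002 and 12402 at P2, 6223 and 7033 at P10, and 15685 and 12017 in Adult lung. The sum of 5 B cell and leukocyte markers was between 265 and 285 at E12 and between 3352 and 4423 in Adult lung. That of 6 red blood cell markers was between 24978 and 26201 at E12 and between 876 and 1827 in Adult lung. The embryonic globins Hbb-y and Hba-x carried it at E12, with means of 14.27 and 12.32 there and 3.96 and 6.25 in Adult lung. Between these stages Alas2 went from 8.26 to 9.95 and Hba-a1 from 4.18 to 4.52. Slc4a1 went from 8.07 to 6.78 and Epb42 from 5.75 to 5.44. The part of these cell types in the results below was not tested. The 3′ to 5′ difference of the beta-actin control probe sets, a sign of RNA quality, also moved with stage: it was between 0.35 and 0.49 from E12 to E16, 0.74 and 0.51 on the E18 arrays, 0.42 and 0.50 at P2, 0.42 and 0.63 at P10, and 0.59 and 0.87 in Adult lung. Its part in the falls before birth and in Adult lung, and in the rise at P2, was not tested.

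Promoters were available from RefSeq (GRCm38.p6) for 34 of the 42 genes, as windows of 300 bases reaching from 250 bases before to 50 after the annotated start. Those of Gmnn, Mcm4, Gins1, Gins2, Gins4, Prim2, Pole and Rfc2 were not used here. Stretches before the start are shown for 6 of the genes that fell before birth, as described below, because the letters that E2F and NF-Y factors are known to bind recur in this set. These were not the 6 largest falls: Mcm6 fell by 2.11, and Cdc45, which has a window and fell by 2.84, is not shown. Capitals mark matches, on either strand, to TTTCGCGC, TTTGGCGC, TTTCCCGC or TTTGGCGG (E2F-like) and to CCAAT. Each stretch is written 5′ to 3′ on the strand of the gene. The first 4 hold E2F-like letters, and Prim1 and Rrm2 hold CCAAT alone.
Cdc6 (chr11:98907991-98908050, plus strand): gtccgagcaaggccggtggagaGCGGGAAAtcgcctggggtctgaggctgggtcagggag
Mcm5 (chr8:75109339-75109508, plus strand): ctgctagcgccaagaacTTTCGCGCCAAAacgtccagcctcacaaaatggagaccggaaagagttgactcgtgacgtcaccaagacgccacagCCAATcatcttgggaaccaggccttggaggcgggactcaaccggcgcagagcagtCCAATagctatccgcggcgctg
Mcm6 (chr1:128359706-128359835, minus strand): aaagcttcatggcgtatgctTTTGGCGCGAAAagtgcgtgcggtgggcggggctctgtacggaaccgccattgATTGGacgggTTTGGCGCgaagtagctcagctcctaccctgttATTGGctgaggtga
Pola1 (chrX:93632156-93632315, minus strand): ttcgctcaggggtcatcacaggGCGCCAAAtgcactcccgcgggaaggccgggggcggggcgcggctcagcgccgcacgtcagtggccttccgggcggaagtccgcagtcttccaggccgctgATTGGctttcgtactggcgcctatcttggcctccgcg
Prim1 (chr10:128015115-128015214, plus strand): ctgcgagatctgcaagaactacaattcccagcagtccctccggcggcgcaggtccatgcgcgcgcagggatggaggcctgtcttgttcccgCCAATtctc
Rrm2 (chr12:24708154-24708253, plus strand): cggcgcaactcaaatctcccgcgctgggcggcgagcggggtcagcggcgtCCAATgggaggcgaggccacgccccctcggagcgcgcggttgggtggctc

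In Cdc6 the match begins 138 bases before the start and reads GCGGGAAA, the reverse strand of TTTCCCGC. In Mcm5 and Mcm6 the runs of 12 capital letters are 2 overlapping matches, TTTCGCGC on one strand and TTTGGCGC on the other. E2F-like letters stood in the windows of 15 of the 34 genes (44.12%), against 730 of 27025 genes with a window (2.701%). They were found in 3 of 5 licensing genes (Orc1, Cdc6, Cdt1), 4 of 5 MCM genes (Mcm3, Mcm5, Mcm6, Mcm7), 5 of 7 primase and polymerase genes (Pola1, Pola2, Pold1, Pold3, Pole2), and in Rfc3, Rpa1 and Lig1, but in 0 of 4 windows of helicase activation and 0 of 3 of nucleotide supply. CCAAT stood in 21 of 34 windows (61.76%), against 41.06% of all genes, and TTTGAA, the cell cycle homology letters, in 6 of 34 (17.65%), against 20.23%. A match is a description of letters and not a binding site.

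Over the whole course the 42 genes ran from high to low. Each was lower in Adult than in E12 lung at an adjusted p under 0.05, where 30.2% of all genes were lower, and both Adult arrays lay below both E12 arrays for each of them, as for 36.3% of all genes. The median difference was -2.85 on the log2 scale, a 7.23-fold fall, and it ranged from -4.40 for Rrm2 to -0.52 for Orc1, whose call was lost without the second E12 array (adjusted p = 0.0689) or the second Adult array (adjusted p = 0.0508). By the moderated F test with a highest stage mean (Max) above 7 and a range of stage means above 1.2, 41 of the 42 were dynamic, against 26.7% of all genes. Orc1 alone was not, by the probe set that stood for it, and its other probe set is described below. The highest stage mean was at E12 for 27 genes and at E14 for 15, against 3845 and 1754 of all 18193 genes. The lowest was in Adult lung for 34, at E18 for 5 and at P10 for 3, against 4053, 2139 and 1487 of all genes.

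**Figure D1:**
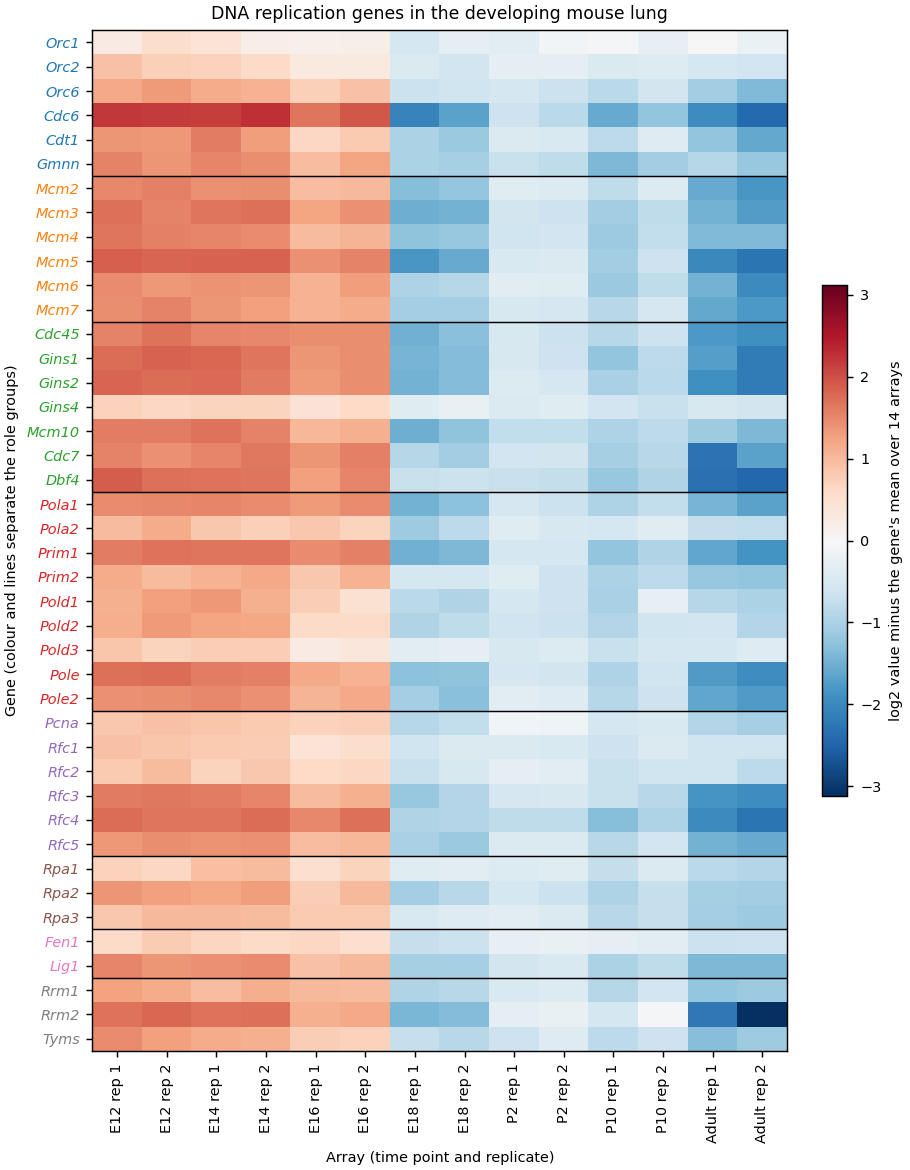
Log2 values of the 42 replication genes (rows, grouped by role) on the 14 arrays (columns), each gene centred on its own mean, with red above and blue below it. The red block ends between E16 and E18, P2 is paler than E18 in most rows, and the palest row is Orc1, with a difference of -0.52 between E12 and Adult.

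The path between these ends was not even. After centring each gene on its own mean, the median of the 42 on the 2 arrays of a stage was 1.46 and 1.38 at E12, 1.41 and 1.40 at E14, 0.96 and 1.04 at E16, -0.99 and -0.93 at E18, -0.49 and -0.49 at P2, -0.88 and -0.65 at P10, and -1.35 and -1.41 in Adult lung. The largest step thus lay between E16 and E18, and the P2 arrays stood above both E18 arrays. The first steps were small. Between E12 and E14 none of the 42 passed the test in either direction, where 0.918% of all genes were lower and 3.41% higher. The median of the 42 was -0.02. At an unadjusted p under 0.05 in the same limma fit, 1 member was lower and 1 higher, beside 5.99% and 9.67% of all genes.

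From E14 to E16, 17 of the 42 fell and 0 rose, where 10.6% of all genes were lower and 9.95% higher. The median of the 42 was -0.33. At an unadjusted p under 0.05, 25 were lower and 0 higher, where 17.3% of all genes were lower. Cdt1 fell most, by 0.72 ± 0.15 (SE, adjusted p = 0.0056), and Pold1 and Pold2, subunits of polymerase delta, fell by 0.61 each. The calls rested on single arrays: 4 remained without the first E14 array, 8 without the second, and 4 without the first E16 array, where the median was -0.26. Pold2, Rfc3 and Lig1 were called whichever array was left out.

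From E16 to E18 all 42 fell, where 21.6% of all genes were lower. The median difference was -2.08, a 4.24-fold fall, beside a median of 0.03 over all 18193 genes, and the E18 arrays lay below both E16 arrays for each of the 42, as for 33.1% of all genes. All 42 stayed called whichever array was left out. Without the first E16 array, which had the higher heart marker sum of the 2, the median was -2.13, and the difference of each of the 42 moved by -0.14 to 0.15. The group medians ran from -2.46 for helicase activation and -2.24 for the MCM subunits, through -1.90 for nucleotide supply, -1.82 for clamp and loader, -1.74 for primase and polymerases, -1.64 for licensing and -1.63 for flap removal and ligation, to -1.24 for single-strand binding. Without the first E16 array the median was -1.73 for licensing and -1.66 for primase and polymerases, so the order of these groups changed. Differences between the group medians were not tested, and the falls within a group differed in size.

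**Figure D2:**
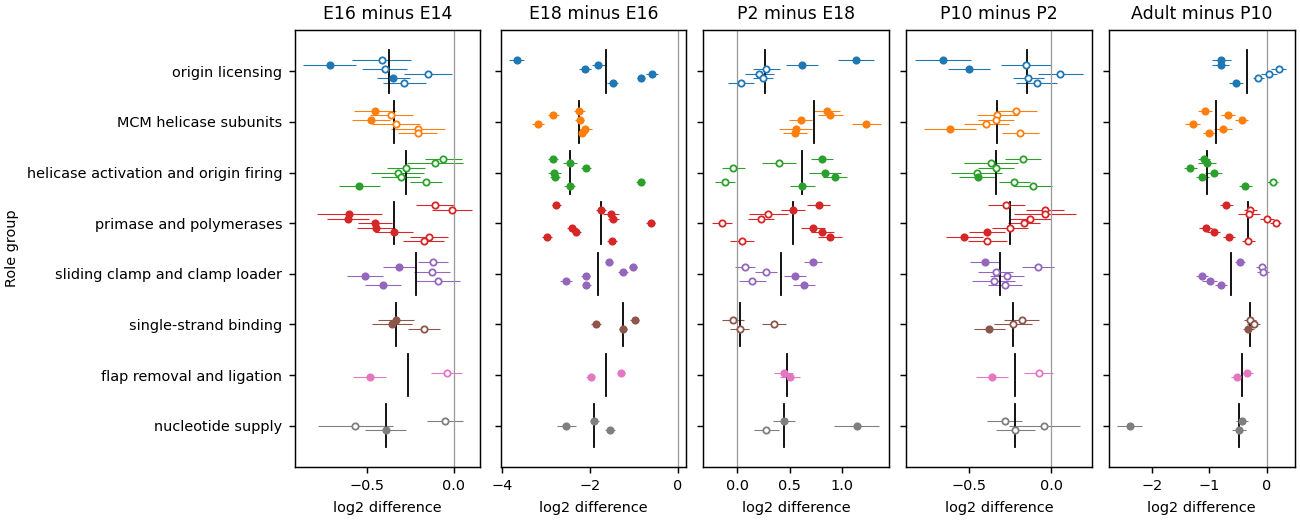
Log2 difference of each gene (points, with the SE as a bar) at 5 steps between neighbouring stages, by role group, with the group median as a black line. Filled points passed an adjusted p under 0.05. All 42 points are filled and below 0 from E16 to E18, 24 are filled and above 0 from E18 to P2, and 29 are filled and below 0 from P10 to Adult.

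From E18 to P2, across birth, 24 of the 42 rose and 0 fell, where 8.58% of all genes were higher and 10.0% lower. The median of the 42 was 0.52, a 1.43-fold rise. This step shares the E18 arrays with the one before it, so the 2 are not independent. At an unadjusted p under 0.05, 29 were higher and 0 lower, where 15.4% of all genes were higher. Both P2 arrays lay above both E18 arrays for 33 genes and below them for 3, and overlapped for 6. Of all genes, 31.6% lay above and 31.4% below in this way. The rise was called in 6 of 6 MCM genes, 4 of 7 of helicase activation, 5 of 9 of primase and polymerases, 3 of 6 of clamp and loader, 2 of 2 of flap removal and ligation, 2 of 3 of nucleotide supply, 2 of 6 of licensing and 0 of 3 of single-strand binding. Of the 24 calls, 20 held whichever array was left out. Those of Cdt1, Mcm6, Pola2 and Rrm1 were lost without 1 of the E18 or P2 arrays, with adjusted p up to 0.0957, 0.15, 0.087 and 0.0737.

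The P2 level was below that of E16 for all 42, where 22.8% of all genes were lower, with a median of -1.47, or -1.54 without the first E16 array. Orc1 lost its call without either E16 array (adjusted p = 0.114 and 0.138) and without the first P2 array (adjusted p = 0.3). From P2 to P10, 9 of the 42 fell and 0 rose, where 4.37% of all genes were lower and 4.82% higher. The median of the 42 was -0.27. That median was -0.15 without the first P10 array and -0.41 without the second. At an unadjusted p under 0.05, 24 were lower and 0 higher, where 11.1% of all genes were lower. None of the 9 calls was left without the first P2, the second P2 or the first P10 array. The P10 arrays differed from each other: 38 of the 42 genes were higher on the second, by a median of 0.23, while 53.7% of all genes were higher there.

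From P10 to Adult, 29 fell and 0 rose, where 14.9% of all genes were lower, with a median of -0.52. At an unadjusted p under 0.05, 32 were lower and 0 higher, where 19.6% of all genes were lower. All 6 MCM genes fell, as did 6 of 7 of helicase activation, 4 of 6 of clamp and loader, 4 of 9 of primase and polymerases, 3 of 6 of licensing, 1 of 3 of single-strand binding, 2 of 2 of flap removal and ligation and 3 of 3 of nucleotide supply. Of the 29 calls, 21 held whichever array was left out. Those of Cdc6, Fen1, Mcm10, Mcm4, Orc6, Rpa3, Rrm1 and Tyms were lost without 1 of the P10 or Adult arrays, with adjusted p up to 0.0543, 0.0734, 0.303, 0.0997, 0.083, 0.153, 0.0773 and 0.087.

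Adult lung was lower than E18 lung for 21 of the 42, where 20.0% of all genes were lower. The median difference was -0.35, and 25 were lower and 1 higher at an unadjusted p under 0.05, beside 23.9% and 23.6% of all genes. The range ran from -1.70 ± 0.11 for Dbf4 (adjusted p = 8.05e-08) to 0.31 ± 0.14 for Orc1 (adjusted p = 0.101). Of the 21 calls, 16 held whichever array was left out. Those of Cdc45, Gins1, Mcm2, Mcm5 and Tyms were lost without 1 of the E18 or Adult arrays, with adjusted p up to 0.0559, 0.179, 0.149, 0.165 and 0.128.

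**Figure D3:**
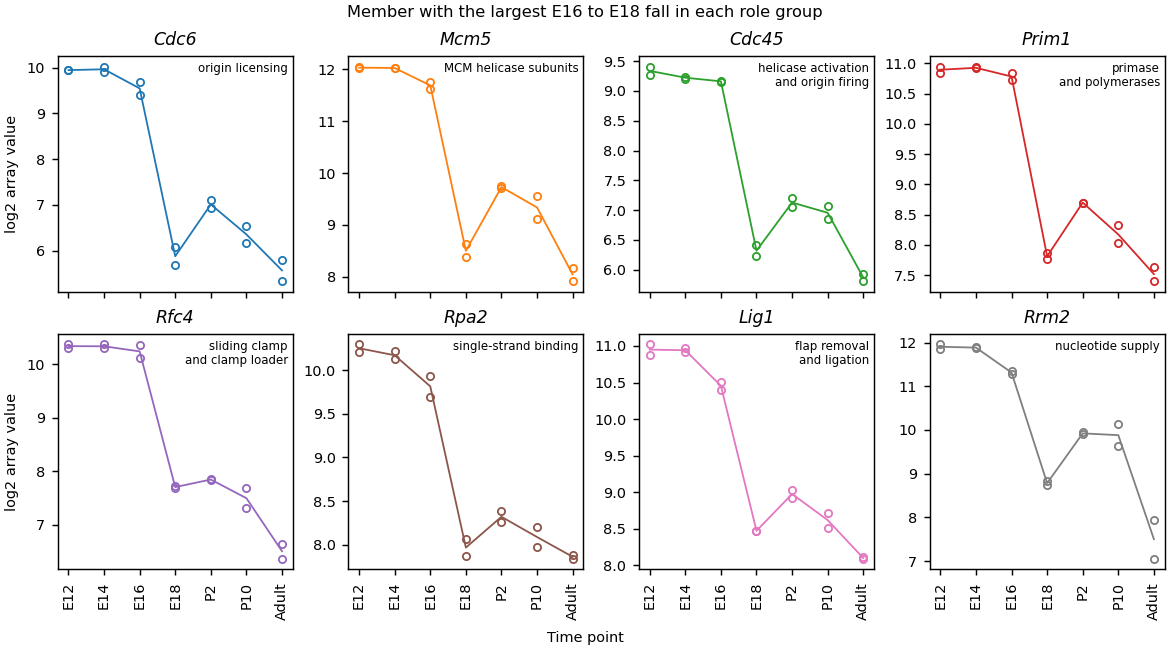
Log2 array values of the gene with the largest E16 to E18 fall in each role group, by stage. Circles are the 2 arrays of a stage and lines join their means, and each panel has its own axis, so levels cannot be compared between genes. Each gene drops between E16 and E18, and Cdc6, Mcm5 and Rrm2 rise by over 1 log2 unit from E18 to P2.

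Among the licensing genes, Cdc6, the ATPase that brings the helicase to the origin, had the largest fall of all 42 before birth. Its arrays read 9.95 and 9.94 at E12, 9.91 and 10.02 at E14, 9.41 and 9.68 at E16, 5.68 and 6.08 at E18, 7.10 and 6.92 at P2, 6.18 and 6.53 at P10, and 5.80 and 5.34 in Adult lung. The E18 values lay far under E16, and both P2 arrays lay above those of the stages before and after them. Cdc6 fell by 3.67 ± 0.17 from E16 to E18 (adjusted p = 3.19e-09), the fifth-largest fall among 18193 genes, rose by 1.13 ± 0.17 at P2 (adjusted p = 0.000606) and fell again by 0.79 ± 0.17 from P10 to Adult (adjusted p = 0.00373). Cdt1, its partner in loading, fell by 1.81 ± 0.15 before birth and rose by 0.62 ± 0.15 after it, so that the log2 ratio of Cdc6 to Cdt1 changed by -1.86 with an SE of 0.20.

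Geminin, the inhibitor of Cdt1, read 10.32 and 10.58 at E16, 8.37 and 8.32 at E18, 8.66 and 8.58 at P2, 7.97 and 8.27 at P10, and 8.47 and 8.19 in Adult lung. It fell by 2.11 ± 0.13 from E16 to E18 (adjusted p = 3.24e-08). Its Adult arrays overlapped those of P10, with a difference of 0.21 ± 0.13 (adjusted p = 0.287), whereas Cdt1 fell by 0.80 ± 0.15 over that step, and the log2 ratio of Cdt1 to Gmnn changed by -1.01 with an SE of 0.09. Of the origin recognition complex, Orc2 fell by 0.83 ± 0.09 and Orc6 by 1.47 ± 0.12 from E16 to E18. Their differences from E18 to P2, 0.24 and 0.04, did not pass the test. Orc6 fell by 0.53 ± 0.12 from P10 to Adult, and Orc2 differed by -0.15 (adjusted p = 0.307).

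Orc1, the ATPase subunit of the complex, was read in 2 ways by its 2 probe sets. The probe set that stood for the gene, 1443172_at, had means of 7.47 at E16 and 6.88 at E18 and fell by 0.59 ± 0.14 (adjusted p = 0.00362). The other, 1422663_at, went from 7.70 to 5.35 and fell by 2.35 ± 0.15 (adjusted p = 5.22e-08), and rose by 0.65 ± 0.15 at P2 (adjusted p = 0.0115). Orc1's place as the smallest of the 42 falls therefore belongs to its standing probe set. Its difference from E12 to Adult and its lack of a dynamic call were read from that probe set too. The means of 1422663_at were 8.21 at E12 and 5.50 in Adult lung.

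The MCM subunits, which form a single ring, all fell by over 2 log2 units before birth and all rose after it. From E16 to E18 their differences were -2.24 for Mcm2, -2.83 for Mcm3, -2.23 for Mcm4, -3.19 for Mcm5, -2.11 for Mcm6 and -2.18 for Mcm7, with SEs between 0.11 and 0.16. Mcm5 read 12.05 and 12.02 at E12, 12.02 and 12.03 at E14, 11.63 and 11.75 at E16, 8.38 and 8.62 at E18, 9.71 and 9.75 at P2, 9.12 and 9.56 at P10, and 8.17 and 7.92 in Adult lung. No array of E18 or later reached the E16 level. Mcm5 also rose most of the 42 at P2, by 1.23 ± 0.14 (adjusted p = 5.31e-05), and fell most of the 6 from P10 to Adult, by 1.29 ± 0.14 (adjusted p = 1.16e-05).

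Mcm6 carries both kinds of promoter letters, as Mcm5 does, and read 11.61 and 11.84 at E16, 9.58 and 9.66 at E18, 10.20 and 10.15 at P2, 9.38 and 9.74 at P10, and 9.07 and 8.55 in Adult lung. Its P2 arrays lay above E18, while 1 of its P10 arrays was below both E18 values. A second bright Mcm6 probe set, 1438852_x_at, fell by 2.71 from E16 to E18. Between the standing probe sets, the log2 ratio of Mcm5 to Mcm6 changed by -1.08 from E16 to E18 and by 0.67 from E18 to P2, with an SE of 0.10. Over the 4 pairs of probe sets with Max above 7, the first change ran from -1.37 to -0.48. The ratios of Mcm2 to Mcm4, of Mcm2 to Mcm7 and of Mcm6 to Mcm7 changed by -0.01, -0.06 and 0.07 from E16 to E18, with SEs of 0.09, 0.05 and 0.12. Over all their pairs of bright probe sets these changes ran from -0.40 to 0.49, from -0.46 to 0.19 and from -0.55 to 0.33.

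In helicase activation, 6 of the 7 genes fell by at least 2 log2 units before birth. Cdc45, which holds the active helicase together with GINS, read 9.27 and 9.41 at E12, 9.24 and 9.21 at E14, 9.17 and 9.15 at E16, 6.22 and 6.42 at E18, 7.20 and 7.05 at P2, 6.85 and 7.07 at P10, and 5.93 and 5.81 in Adult lung. It was almost level up to E16 (-0.06 ± 0.11 from E14, adjusted p = 0.769) and then fell by 2.84 ± 0.11 (adjusted p = 7.08e-10), the smallest adjusted p of the 42. A second Cdc45 probe set, 1457838_at, differed by -0.31 over the same step without passing the test (adjusted p = 0.0674). Mcm10, a scaffold of the starting fork, fell by 2.46 ± 0.12 and rose by 0.62 ± 0.12 at P2, where another probe set, 1433407_at, differed by 0.28 (adjusted p = 0.213). That probe set was dim, with a Max of 5.73 against 9.81 for the standing one.

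The GINS subunits, which act as 1 complex, parted. From E16 to E18, Gins1 fell by 2.81 ± 0.15 and Gins2 fell by 2.80 ± 0.11, and they rose by 0.84 and 0.93 at P2. Gins4 read 9.66 and 9.83 at E16, 8.83 and 8.97 at E18, 8.74 and 8.82 at P2, 8.60 and 8.52 at P10, and 8.70 and 8.63 in Adult lung. Its fall of 0.85 ± 0.09 (adjusted p = 6.78e-06) was followed by no rise, with both P2 arrays below both E18 arrays. The log2 ratios of Gins1 and of Gins2 to Gins4 each changed by -1.96 from E16 to E18, with SEs of 0.19 and 0.11, and that of Gins1 to Gins2 by -0.01. A second Gins2 probe set, 1452881_at, fell by 3.64 over that step, which gave -2.79 for Gins2 to Gins4 and 0.83 for Gins1 to Gins2.

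Cdc7 and Dbf4 form the kinase that fires origins. Cdc7 fell by 2.46 ± 0.16 and Dbf4 by 2.08 ± 0.11 from E16 to E18. Dbf4 then read 8.16 and 8.18 at E18, 8.16 and 8.11 at P2, 7.69 and 7.92 at P10, and 6.53 and 6.42 in Adult lung. Its E18 and P2 arrays overlapped, and its Adult arrays lay far lower. The fall from P10 to Adult was 1.33 ± 0.11 for Dbf4 (adjusted p = 1.2e-06) and 1.04 ± 0.16 for Cdc7 (adjusted p = 0.000289), whose Adult arrays read 6.57 and 7.20. From E18 to P2, Cdc7 differed by 0.40 ± 0.16 (adjusted p = 0.12) and Dbf4 by -0.04 (adjusted p = 0.879).

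Primase and polymerase alpha, which start every new strand, held the largest fall of their group. Prim1, the catalytic primase subunit, read 10.85 and 10.94 at E12, 10.94 and 10.92 at E14, 10.72 and 10.84 at E16, 7.76 and 7.86 at E18, 8.70 and 8.70 at P2, 8.02 and 8.32 at P10, and 7.63 and 7.40 in Adult lung. It fell by 2.97 ± 0.11 (adjusted p = 7.17e-10), rose by 0.89 ± 0.11 at P2 (adjusted p = 0.000148) and fell at each later step. Prim2, the regulatory subunit, fell by 1.50 ± 0.12 and differed by 0.04 at P2 (adjusted p = 0.863), and the log2 ratio of Prim1 to Prim2 changed by -1.47 and then by 0.84, with an SE of 0.13. Over the 4 pairs of bright probe sets of these 2 genes the changes ran from -1.47 to -0.70 and from 0.23 to 0.84. Pola1, the polymerase alpha catalytic subunit, fell by 2.76 ± 0.11 and rose by 0.78 ± 0.11. Its accessory subunit Pola2 fell by 1.74 ± 0.11 and rose by 0.53 ± 0.11.

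The extending polymerases differed from each other in size of fall. Pole, the catalytic subunit of polymerase epsilon on the leading strand, read 9.32 and 9.22 at E16, 6.85 and 6.89 at E18, 7.62 and 7.56 at P2, 7.17 and 7.51 at P10, and 6.37 and 6.19 in Adult lung. It fell by 2.40 ± 0.11 and its partner Pole2 by 2.31 ± 0.11, and both rose at P2, by 0.72 and 0.81. The log2 ratio of Pole to Pole2 changed by -0.09 with an SE of 0.10. In polymerase delta of the lagging strand, Pold1 fell by 1.52 ± 0.19, Pold2 by 1.47 ± 0.12 and Pold3 by 0.62 ± 0.10. None of these 3 passed the test from E18 to P2 (0.30, 0.23 and -0.15) or from P10 to Adult (-0.30, 0.01 and 0.16), while Pole and Pole2 fell by 1.06 and 0.92 over the latter step.

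Pold1 had the widest spread between the P10 arrays, 7.49 and 8.24. Without the first of them its difference from P10 to Adult was called, at -0.67 (adjusted p = 0.00605).

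PCNA, the ring that holds polymerases on DNA, read 13.35 and 13.43 at E12, 13.39 and 13.34 at E14, 13.23 and 13.25 at E16, 11.62 and 11.74 at E18, 12.43 and 12.38 at P2, 11.96 and 12.04 at P10, and 11.60 and 11.48 in Adult lung. The Adult and E18 values were near each other (-0.14 ± 0.09, adjusted p = 0.258). Pcna fell by 1.56 ± 0.09 before birth and rose by 0.72 ± 0.09 after it (adjusted p = 0.000117). In the clamp loader the 5 subunits separated: all 5 fell from E16 to E18, with differences of -1.02 for Rfc1, -1.24 for Rfc2, -2.08 for Rfc5, -2.09 for Rfc3 and -2.54 for Rfc4, with SEs between 0.10 and 0.13.

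Rfc4 read 10.13 and 10.36 at E16, 7.69 and 7.72 at E18, 7.85 and 7.85 at P2, 7.31 and 7.68 at P10, and 6.65 and 6.37 in Adult lung. It lay at nearly 1 level from E18 to P2 (0.14 ± 0.13, adjusted p = 0.535) and fell by 0.99 ± 0.13 from P10 to Adult, as Rfc3 did by 1.13 and Rfc5 by 0.79. Rfc1, the large subunit, read 9.87 and 9.99 at E16, 8.83 and 8.99 at E18, 8.99 and 8.97 at P2, 8.80 and 9.01 at P10, and 8.82 and 8.82 in Adult lung. After E18 its arrays stayed within a narrow band. The log2 ratio of Rfc1 to Rfc4 changed by 1.52 from E16 to E18 and by 0.91 from P10 to Adult, with an SE of 0.10.

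The single-strand binding genes had, by their standing probe sets, the smallest group median before birth and no call at P2. Rpa1, the largest subunit, read 12.14 and 12.30 at E16, 11.22 and 11.25 at E18, 11.17 and 11.22 at P2, 10.87 and 11.16 at P10, and 10.77 and 10.68 in Adult lung. It fell by 0.98 ± 0.10, Rpa2 by 1.85 ± 0.11 and Rpa3 by 1.24 ± 0.09, and the log2 ratio of Rpa1 to Rpa2 changed by 0.87 with an SE of 0.07. From E18 to P2, Rpa2 differed by 0.35 ± 0.11 (adjusted p = 0.0536) and passed the test under quantile normalization (adjusted p = 0.0193), while Rpa1 and Rpa3 differed by -0.04 and 0.02. A second bright Rpa2 probe set, 1454011_a_at, fell by 2.28 ± 0.12 from E16 to E18 and rose by 0.45 ± 0.12 at P2 (adjusted p = 0.0259). The second Rpa1 probe set, 1423293_at, differed by 0.04 at P2 (adjusted p = 0.879).

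Lig1, the ligase that seals lagging-strand fragments, read 10.40 and 10.51 at E16, 8.47 and 8.47 at E18, 8.92 and 9.03 at P2, 8.52 and 8.72 at P10, and 8.11 and 8.09 in Adult lung. It fell by 1.98 ± 0.10 (adjusted p = 3.97e-09) and rose by 0.50 ± 0.10 at P2 (adjusted p = 0.00308). Fen1, the flap nuclease, had 2 probe sets of unlike size. The standing one, 1436454_x_at, fell by 1.28 ± 0.09 before birth, and 1421731_a_at fell by 2.59 ± 0.10. Both rose at P2, by 0.44 and 0.73, and both fell from P10 to Adult, by 0.34 and 0.67.

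**Figure D4:**
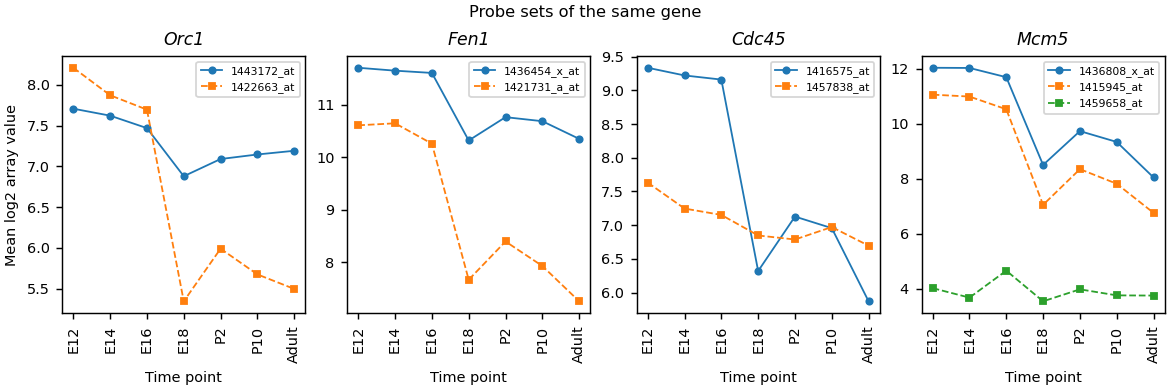
Stage means of the log2 values of each probe set of Orc1, Fen1, Cdc45 and Mcm5. Solid lines with circles are the probe sets that stood for the gene and dashed lines with squares are the others. From E16 to E18 the differences were -0.59 and -2.35 for Orc1, -1.28 and -2.59 for Fen1, and -3.19 and -3.47 for the 2 bright Mcm5 probe sets.

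Over the whole set, 93 probe sets matched the 42 genes, and 32 genes had more than 1. Of the 76 with Max above 7, 75 were lower at E18 than at E16 and 45 were higher at P2 than at E18. Of the 17 with Max of 7 or under, 10 were lower at E18. By 1 probe set a gene, 21.6% of all genes were lower and 8.58% higher at these steps, and shares over all probe sets were not counted. A probe set can pass the Max limit through the early stages alone, where these genes were highest, so the limit itself favours later falls. Among the 25 genes with at least 2 probe sets above that level, all such probe sets fell in 24. Cdc45 was the other.

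In nucleotide supply the 2 ribonucleotide reductase subunits took different courses. Rrm2, the small subunit made in S phase, read 11.85 and 11.96 at E12, 11.87 and 11.90 at E14, 11.29 and 11.34 at E16, 8.74 and 8.82 at E18, 9.90 and 9.94 at P2, 9.63 and 10.14 at P10, and 7.95 and 7.05 in Adult lung. It fell by 2.53 ± 0.22 before birth (adjusted p = 7.22e-07), rose by 1.14 ± 0.22 at P2 (adjusted p = 0.00308), and stayed near that level at P10 (-0.04, adjusted p = 0.956). It then fell by 2.38 ± 0.22 to Adult (adjusted p = 2.95e-06), the largest fall of the 42 over that step. The Adult arrays differed by 0.89, the widest spread of any of the 42 there, and both lay below every earlier array.

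Rrm1, the large subunit, read 11.05 and 11.04 at E16, 9.12 and 9.18 at E18, 9.59 and 9.61 at P2, 9.17 and 9.46 at P10, and 8.86 and 8.91 in Adult lung. It fell by 1.90 ± 0.10, rose by 0.45 ± 0.10 and fell by 0.44 ± 0.10 over the same 3 steps. The log2 ratio of Rrm1 to Rrm2 changed by 0.64, -0.69 and 1.95 over them, with an SE of 0.27. Tyms, which makes thymidylate, was read by dim probe sets: a further one that carries a second symbol beside Tyms was not used. The standing probe set read 7.22 and 7.01 at E12 and 5.01 and 4.87 at E18, and its Max of 7.11 was the lowest of the 42. It fell by 1.55 ± 0.12 from E16 to E18 and by 0.48 ± 0.12 from P10 to Adult, and a second probe set, 1442192_at, fell by 2.47 and 0.45. From E18 to P2 the standing probe set differed by 0.28 (adjusted p = 0.143), while 1442192_at, with a Max of 6.92, rose by 0.59 (adjusted p = 0.00716).

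Of 52 further genes of DNA replication that were listed, 50 were measured. From E16 to E18, 43 of the 50 fell, 3 rose and 4 did not pass the test, with a median of -1.37, where 21.6% of all genes were lower and 24.8% higher. Without the first E16 array 42 fell and 2 rose, since Top1 (adjusted p = 0.0509) and Rrm2b (adjusted p = 0.0538) lost their calls. The largest falls were those of Dscc1, a subunit of an alternative clamp loader for sister cohesion (-3.76 ± 0.16), Exo1, an exonuclease of mismatch repair (-3.62 ± 0.13), and Uhrf1, which guides maintenance methylation to new DNA (-3.15 ± 0.15). The 3 smallest negative differences were those of Dguok, the mitochondrial deoxyguanosine kinase (-0.14, adjusted p = 0.297), Shmt1 of one-carbon metabolism (-0.20, adjusted p = 0.202) and Top1, a topoisomerase also used in transcription (-0.28, adjusted p = 0.0341). From E18 to P2, 18 of the 50 rose and 0 fell, where 8.58% of all genes were higher and 10.0% lower. From P10 to Adult, 26 fell and 3 rose, where 14.9% of all genes were lower and 16.8% higher.

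**Figure D5:**
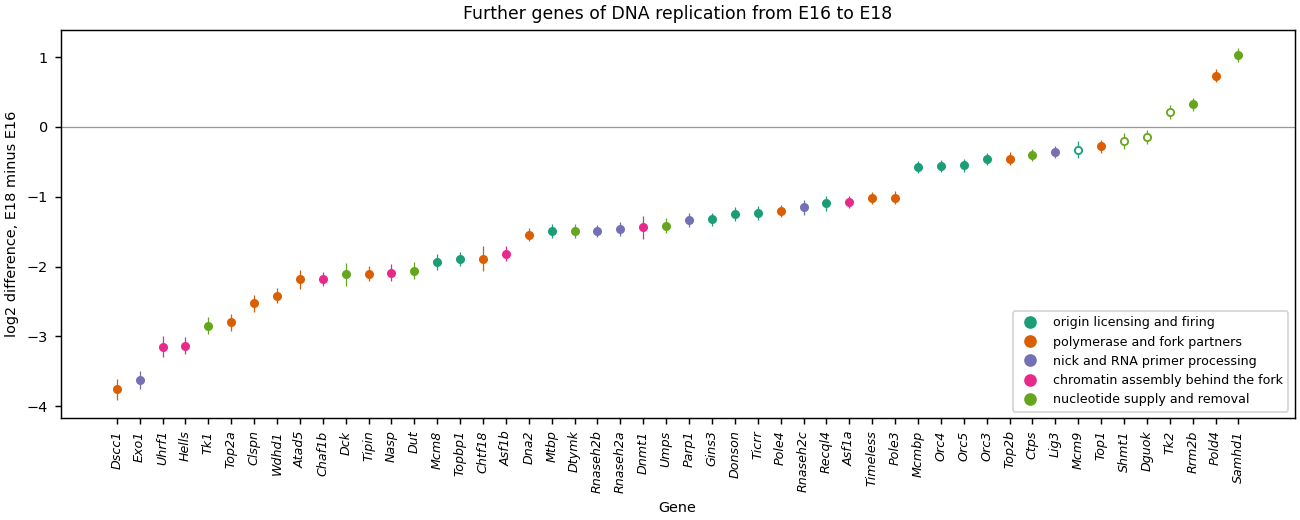
Log2 difference from E16 to E18 of 50 further replication genes, sorted, with the SE as a bar and the list of each gene by colour. Filled points passed an adjusted p under 0.05. The order runs from Dscc1 at -3.76 to Samhd1 at 1.03, and 3 filled points lie above 0.

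The 3 that rose before birth were Samhd1, which breaks down deoxynucleotides, Pold4, the smallest subunit of polymerase delta, and Rrm2b, the small reductase subunit that cells outside S phase use. Samhd1 read 8.60 and 8.58 at E16, 9.65 and 9.59 at E18, 9.80 and 9.77 at P2, 9.56 and 9.35 at P10, and 10.39 and 10.51 in Adult lung. It rose by 1.03 ± 0.10 (adjusted p = 3.51e-06) and again by 1.0 ± 0.10 from P10 to Adult (adjusted p = 1.03e-05). Samhd1 is abundant in myeloid cells, for which no marker was listed. The B cell and leukocyte marker sum was between 342 and 429 at E16 and between 669 and 757 at E18. Over that step the leukocyte gene Ptprc went from 7.02 to 8.60. The B cell genes Cd79a, Cd79b, Ighm and Ms4a1 went from 5.50, 6.66, 6.34 and 4.43 to 5.61, 7.22, 6.63 and 4.62. The part of leukocytes in the Samhd1 rise was not tested.

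Pold4 rose by 0.74 ± 0.10 (adjusted p = 3.69e-05) over the step in which Pold1, Pold2 and Pold3 fell. Rrm2b read 8.16 and 8.15 at E16, 8.50 and 8.46 at E18, 8.69 and 8.65 at P2, 8.60 and 8.81 at P10, and 9.19 and 9.30 in Adult lung. It rose by 0.32 ± 0.09 before birth (adjusted p = 0.0142, or 0.0538 without the first E16 array) and by 0.54 ± 0.09 from P10 to Adult (adjusted p = 0.000743), the steps in which Rrm2 fell by 2.53 and 2.38. The thymidine kinases, chosen after their values were seen, also parted: the cytosolic Tk1 fell by 2.85 ± 0.12 and 1.77 ± 0.12 over these 2 steps, while the mitochondrial Tk2 differed by 0.21 ± 0.10 (adjusted p = 0.0986) and rose by 0.42 ± 0.10 (adjusted p = 0.00562).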

How the data were processed

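RNA from pooled whole lungs of ICR mice had been labelled and hybridised to 14 Affymetrix mouse expression arrays, 2 for each of 7 stages. The values are log2 expression values as deposited by the authors. The methods name Robust Multichip Average in Partek Genomics Suite 6.4, while the submitters' processing notes name Partek 6.4 and GCRMA, so which of them gave the values is not known. The number of arrays limits the precision.

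Of 45101 rows, 64 Affymetrix control probe sets were left out. The platform annotation gave 34945 of the other 45037 a single symbol, 932 several and 9160 none, and 18193 genes were counted. In R 4.3.3, limma 3.58.1 fitted a mean for each stage to all arrays (residual df 7, prior df 6.04), with no replicate block, and p-values were adjusted by Benjamini-Hochberg over all probe sets. A gene was called at an adjusted p under 0.05. The spread of a difference between 2 genes (log2 ratio) was pooled over the stages in the same way, without a test. The fit was tested on simulated data.

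The text names all 42 genes. Of the further pathway genes it names the 3 largest falls, the 3 smallest negative differences from E16 to E18 and those that rose. It also names Gins3, Tk1 and Tk2, chosen after their values were seen. The members and lists were chosen with earlier results of these data known. Marker levels were summed on the linear scale. Array medians lay between 6.55 and 6.62, and replicates correlated at 0.995 to 0.998. The 3′ to 5′ difference of the Gapdh control probe sets ran from -0.17 to 0.15 and that of the beta-actin ones from 0.35 to 0.87. Promoter letters were read from a RefSeq table (GRCm38.p6). The alternatives were a replicate block, each array left out, other rules for the probe set of a gene, only probe sets with Max above 7, median centring, quantile normalization, an intensity trend, a threshold of 1.2 on the difference, and the methods' F test. Chosen after seeing the data were the gene ratios over each pair of bright probe sets, and the ratios and pathway counts without the first E16 array.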

Additional observations from a re-analysis of the deposited data

How the results depend on the processing

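All 42 genes were called lower at E18 than at E16 under each alternative run but 1: 35 were where the difference had also to exceed 1.2 and the higher mean 7. Over 8316 results of single genes under 22 alternative settings, 7940 kept their side of the threshold, 296 lost the call, 78 gained it and 2 reversed. A result that was not called could change its sign and still count among the 7940. Leaving out 1 array at a time, the number lower from E14 to E16 ran from 4 to 19 and from P2 to P10 from 0 to 10. The median differences ran from -2.13 to -1.96 (E16 to E18), -0.41 to -0.15 (P2 to P10), -0.67 to -0.42 (P10 to Adult), -2.96 to -2.78 (E12 to Adult) and -0.44 to -0.30 (E18 to Adult). With the mean of all probe sets of a gene, the medians were -1.60 (E16 to E18), 0.40 (E18 to P2), -2.33 (E12 to Adult), -1.24 (E16 to P2) and -0.26 (E18 to Adult), and Fen1 was lower in Adult than E18 lung (-0.19, adjusted p = 0.0461), against 0.03. Quantile normalization gave -2.75 (E12 to Adult). Where the difference had also to exceed 1.2 and the higher mean 7, fewer members could pass at the other steps. There 0 were lower from E14 to E16, 1 was higher from E18 to P2, 0 were lower from P2 to P10, 3 from P10 to Adult and 2 from E18 to Adult. For Mcm10, the dim probe set 1433407_at (Max 5.73 against 9.81) gave 0.17 from P10 to Adult (adjusted p = 0.443), against a fall of 0.37. Without the first E16 array, the log2 ratios between genes of a complex moved by at most 0.20 from E16 to E18. The cause of these changes was not tested.

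The replicate numbers did not pair the arrays: of 21 pairs of stages, 0 had a correlation of replicate deviations over 0.1 (-0.18 to 0.08). With a replicate block, 372 of 378 gene results kept their call and 6 lost it, and 14 members were lower from E14 to E16, 7 from P2 to P10 and 41 from E16 to P2.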
